A study of Mus musculus with 148 samples.

Results

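The expression of 32 glycolysis and hypoxia genes was followed through the immune cells of breast cancer lung metastases. The members were a list of named genes, 15 for enzymes and transporters of glycolysis and 17 for Hif1a, Mif and genes known to respond to low oxygen, and each was found by its exact symbol among the 52634 genes of the count tables. Cells came from 27 C57BL/6 mice that carried the photoactivatable GFP (PA-GFP) transgene. Female mice received tdTomato-labelled EO771 breast cancer cells in the mammary gland at 8 weeks of age, so all tumors came from 1 cell line, and in the mice followed for metastasis the primary tumor was removed after 3 weeks. The 63 samples, each 1 tissue of 1 mouse, were lungs of control mice without a tumor (3), lungs of mice that still bore the primary tumor (Pre-MET, 3), lungs of injected and resected mice without metastases (relapse-free, 6), lung pieces of metastatic mice without visible tdTomato (distal normal, 14), lung pieces with metastases (MET, 13), photoactivated cells of the metastasis core (13) or invasive margin (7), and primary tumors (4). The 3 margin plates of mouse 17 carry NON-MET as their photoactivation target where the other margins carry ADJ, and they were used as margin by their status label. Most samples were sorted as CD31-CD45+ cells, whereas the core and margin were sorted as CD31- cells with activated GFP, in 1 core with a CD45 gate as well. Loss of tdTomato by tumor cells cannot be told apart from their absence in distal tissue.

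Glycolysis splits glucose into pyruvate, and lactate dehydrogenase turns pyruvate into lactate, which monocarboxylate transporters carry out of the cell. When oxygen is low, hypoxia-inducible factors such as HIF-1 escape degradation and raise the transcription of most glycolytic enzymes, of the glucose transporter Glut1 and of genes for angiogenesis, lipid storage and mitophagy. Activated macrophages and lymphocytes also raise glycolysis without a lack of oxygen, so these genes are not markers of hypoxia alone.

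Levels were unique molecular identifiers (UMIs, counted at the 3' end and thus not scaled by gene length) summed over the cells of 1 mouse, tissue and subpopulation label, for sums of at least 10 cells, and given as CPM, the UMIs of a gene scaled to a common total per sum. There were 512 such sums over 26 immune labels and the Tumor label, with 5720 to 731354 UMIs (median 41747), and a single UMI was worth 175 CPM in the shallowest sum, 24.0 CPM in the median one and 1.37 CPM in the deepest. The members held 0.448% of the UMIs. Samples held 48306 to 2957637 UMIs, and no well name was shared between plates. The labels were checked against marker lists, and in T cells the 4 T-cell markers summed to between 1417 and 4343 CPM in MET, core, margin, distal and primary sums and to at most 249 CPM in macrophages. The label Tumor, with 2 sums from primary tumors, held 1186 and 4228 CPM of 5 stromal genes beside 247 and 357 CPM of 9 epithelial genes.

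The promoters of the members were searched for the core letters bound by hypoxia-inducible factors. Those of 4 members that led the results or held the most matches are shown. The motifs were ACGTG and GCGTG on either strand, and the palindrome CACGTG holds the first of them on both strands, so it counts as 2 overlapping matches. Each line gives the 250 bases before a gene start in RefSeq (GRCm38.p6), 5' to 3' along the gene, with matched letters in capitals. Ldha and Hilpda have 2 starts there, and the stretch with more matches is shown.
Ldha (chr7:46845554-46845803, plus strand): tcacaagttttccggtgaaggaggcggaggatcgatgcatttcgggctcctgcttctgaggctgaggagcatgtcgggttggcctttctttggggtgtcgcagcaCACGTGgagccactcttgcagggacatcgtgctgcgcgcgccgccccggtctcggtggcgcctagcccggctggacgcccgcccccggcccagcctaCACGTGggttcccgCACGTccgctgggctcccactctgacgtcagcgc
Bnip3 (chr7:138909507-138909756, minus strand): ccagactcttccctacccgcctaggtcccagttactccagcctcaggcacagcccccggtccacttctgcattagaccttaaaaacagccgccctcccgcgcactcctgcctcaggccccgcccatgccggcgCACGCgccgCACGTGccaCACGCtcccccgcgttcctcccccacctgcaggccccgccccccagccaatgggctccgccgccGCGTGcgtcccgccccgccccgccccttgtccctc
Hilpda (chr6:29272376-29272625, plus strand): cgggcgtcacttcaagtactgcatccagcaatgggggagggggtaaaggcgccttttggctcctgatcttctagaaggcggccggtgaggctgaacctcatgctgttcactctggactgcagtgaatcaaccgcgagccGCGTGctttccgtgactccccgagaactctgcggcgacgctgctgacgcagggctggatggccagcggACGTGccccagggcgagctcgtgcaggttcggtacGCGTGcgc
Ankrd37 (chr8:45999851-46000100, minus strand): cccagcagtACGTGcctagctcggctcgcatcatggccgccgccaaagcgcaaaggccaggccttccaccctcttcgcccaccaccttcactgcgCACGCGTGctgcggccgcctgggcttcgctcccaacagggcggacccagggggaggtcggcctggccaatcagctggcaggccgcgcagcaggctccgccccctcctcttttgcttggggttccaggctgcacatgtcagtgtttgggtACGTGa

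These stretches held 5 matches in Ldha (lactate dehydrogenase A), 5 in Bnip3 (a mitophagy receptor), 3 in Hilpda (a lipid droplet protein) and 4 in Ankrd37 (an ankyrin repeat protein). The stretch before the other start held 1 match in Ldha and 0 in Hilpda. Windows of 300 bases, from 250 before to 50 after the start, were found for 29 members, Ero1l under its RefSeq name Ero1a, while Bnip3l, Ndrg1 and Bhlhe40 had no entry. Of the 29 genes, 27 (93.1%) held a match in at least 1 window, against 46.7% of 27025 genes in RefSeq. By window the share was 80.5% of 41 for the members and 43.8% of 32851 for all. The windows of Tpi1 (triosephosphate isomerase) and Gpi1 (glucose-6-phosphate isomerase) held neither motif. All genes in RefSeq were taken as they stand and were not matched to the members by base composition. A match is a run of letters and was not tested for binding.

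Across subpopulations the members were highest in Mac Isg20 macrophages and Mon Thbs1 monocytes. Of the 32 members, 15 had their highest mean level in 1 of these labels and 21 had their highest or second highest there, 11 of the 15 glycolysis genes and 10 of the 17 others. Mac Isg20 was highest for 10 members, Mon Thbs1 and T Treg for 5 each, and PMN-MDSC and migratory dendritic cells (migDC) for 3 each. These levels describe the labels and carry no test, since the labels were made by clustering the same cells. The same counts over all genes were not computed, so they are not read as particular to these genes. The means pool tissues, and the Mac Isg20 sums came only from MET (8) and the core (7).

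**Figure D1:**
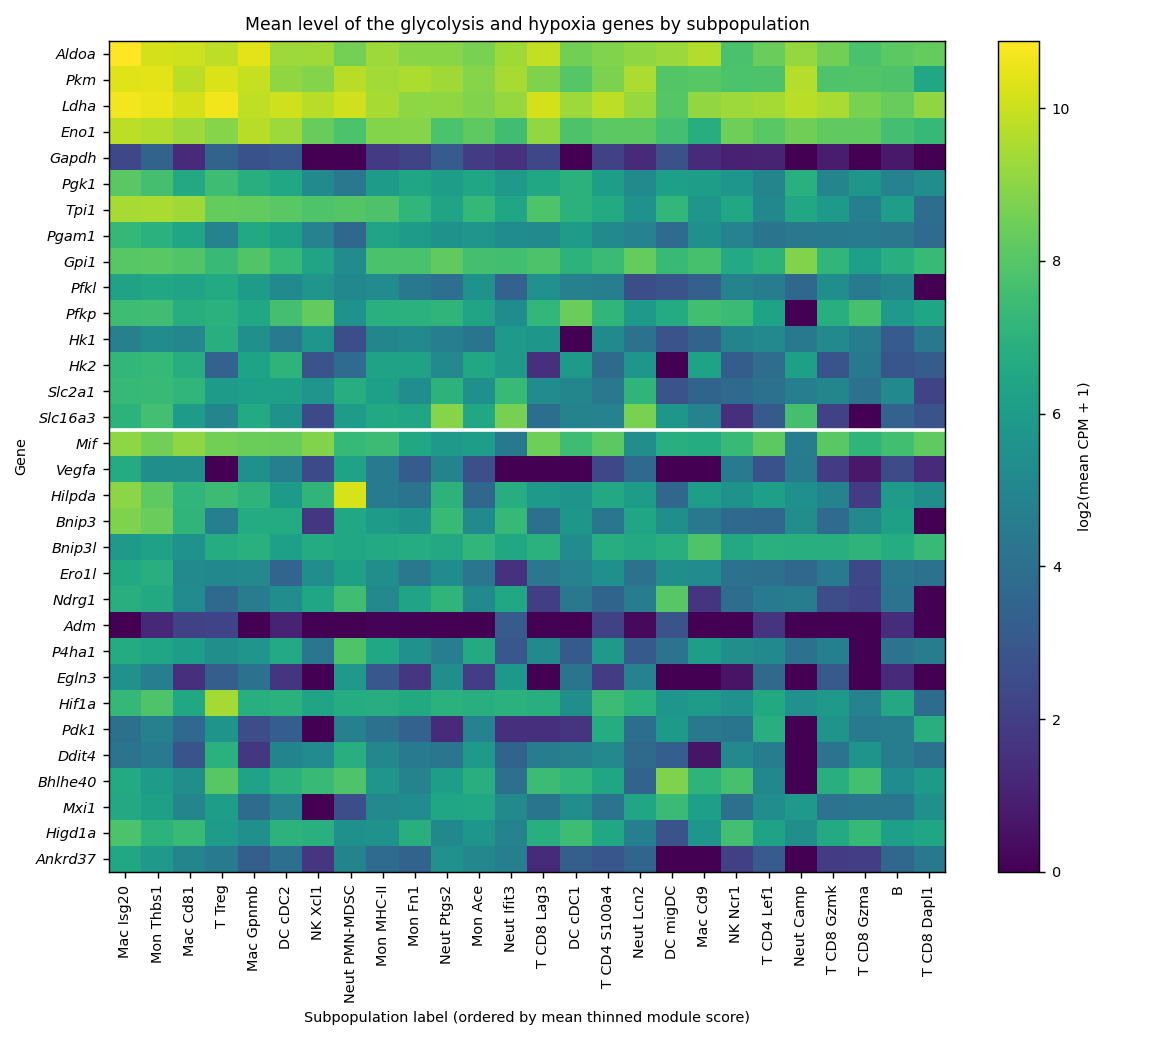
Mean level of each of the 32 members (rows) in each subpopulation label (columns, ordered by the mean thinned module score), as log2(CPM + 1). Ldha, Aldoa and Pkm were detected in all labels, and the columns Mac Isg20 and Mon Thbs1 are among the brightest (highest) over most rows. Hif1a and Pdk1 follow another order, with T cell labels highest.

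Ldha, Aldoa, Pkm and Eno1, enzymes of glycolysis and lactate formation, were the most abundant members. Ldha averaged 734 ± 489 CPM (SD, n = 510 immune sums), and its mean was 1636 ± 500 CPM in Mac Isg20 (n = 15), 1620 ± 453 in T Treg (n = 7) and 255 ± 44.0 in migDC (n = 3), the lowest label. By sample Ldha ran from 638 over a median of 1553 to 2354 CPM in Mac Isg20, from 158 over 1610 to 2610 in Mon Thbs1 and from 0 over 458 to 1055 in Mon Fn1. The order of Mac Isg20 and T Treg lay within the spread of their samples. Aldoa (aldolase A, which splits fructose bisphosphate) averaged 566 ± 476.1 CPM and was highest in Mac Isg20 (1889 ± 467), where all 15 samples stood between 1275 and 2871 CPM with a median of 1845. In Mon Fn1 the median of Aldoa was 478 CPM and the range 0 to 1072, below all 15 Mac Isg20 samples.

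Pkm (pyruvate kinase) averaged 550 ± 492 CPM and was highest in Mon Thbs1, at 1376 ± 578 CPM (n = 25; 483 to 2535, median 1296), followed by Mac Isg20 at 1318 ± 504 (696 to 2166, median 1151), and lowest in CD8 Dapl1 T cells at 89.9 ± 74.6 (n = 9). Pkm of these 2 myeloid labels did not differ beyond the spread. Eno1 (enolase) averaged 383 ± 333 CPM, peaked in Mac Isg20 at 886 ± 491 (232 to 2344, median 776) with Mac Gpnmb next at 828 ± 392 (n = 14), and was lowest in the alveolar macrophages Mac Cd9 at 109 ± 101 (n = 11). Tpi1 averaged 170 ± 252 CPM, and stood at 719 ± 364 in Mon Thbs1 (32.2 to 1403, median 706) and 701 ± 327 in Mac Isg20 (290 to 1368, median 583) against 14.2 ± 18.8 in CD8 Dapl1. Tpi1 in Mon Fn1 ran from 0 to 435 CPM with a median of 136. Pgk1 (phosphoglycerate kinase) peaked in Mac Isg20 at 276 ± 90.4 CPM and Pgam1 (phosphoglycerate mutase) in the same label at 152 ± 117, both lowest in PMN-MDSC. Gapdh had only 140 UMIs in all, at most 10.2 ± 10.6 CPM in T Treg. Reads with several map positions were not counted, and Gapdh, Ldha, Pgk1, Pgam1, Eno1, Aldoa and Mif have processed copies elsewhere in the genome, so their levels relative to other genes are uncertain.

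Among the upper steps and the transporters, Hk2 and Slc2a1 had their highest mean in Mon Thbs1 and the others in further labels. Gpi1 averaged 189 ± 145 CPM and was highest in neutrophils, at 452 ± 456 in Neut Camp (n = 4) and 318 ± 159 in Neut Lcn2 (n = 24), with sample medians of 249 in Mac Isg20 (66.3 to 615) and 271 in Mon Thbs1 (0 to 547). Pfkp (platelet-type phosphofructokinase) averaged 122 ± 126 CPM, was highest in cDC1 dendritic cells (339 ± 148, n = 5) and NK Xcl1 cells (307 ± 171, n = 6), and was at 0 in Neut Camp. Pfkp medians were 171 CPM in Mac Isg20 (0 to 398) and 162 in Mon Thbs1 (0 to 402). Pfkl (liver-type phosphofructokinase) and Hk1 (hexokinase 1) were highest in T Treg, at 99.7 ± 95.5 and 115 ± 89.6 CPM, whereas Hk2 (hexokinase 2) was highest in Mon Thbs1 (157 ± 107) and Mac Isg20 (145 ± 121). Slc2a1, which encodes Glut1, stood at 162 ± 147 CPM in Mon Thbs1, 159 ± 142 in Neut Ifit3 and 3.76 ± 11.3 in CD8 Dapl1. Slc16a3, the lactate exporter Mct4, was highest in neutrophils, with 481 ± 513 CPM in Neut Ptgs2 (n = 29; 0 to 2622) and 415 ± 306 in Neut Lcn2, and it was at 0 in CD8 Gzma T cells. In Mon Thbs1 it averaged 198 ± 163 CPM, and 363 ± 36.3 in the 4 primary tumors.

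Among the hypoxia response genes, Mif (macrophage migration inhibitory factor, a cytokine) averaged 208 ± 202 CPM and was highest in Mac Isg20 (527 ± 205; 202 to 874, median 547) and Mac Cd81 (523 ± 325, n = 9; 146 to 1109, median 364). Bnip3 reached 437 ± 414 CPM in Mac Isg20 and 334 ± 226 in Mon Thbs1 and was at 0 in CD8 Dapl1, whereas its paralog Bnip3l was highest in Mac Cd9 (239 ± 116). Ero1l, an oxidase of the endoplasmic reticulum, was highest in Mon Thbs1 (114 ± 90.7), and Higd1a (224 ± 201), Vegfa (103 ± 97.2), which encodes the angiogenic factor, and Ankrd37 (88.5 ± 130) were highest in Mac Isg20. The Mac Isg20 sums also held 1950 CPM (300 to 5682) of 3 platelet genes, and the part of platelets in their levels was not tested. Migratory dendritic cells led for Ndrg1 (264 ± 187), the transcription factor Bhlhe40 (440 ± 110) and Mxi1 (172 ± 138), each over 3 sums.

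Hilpda had its highest mean in the neutrophil-like PMN-MDSC, at 1203 ± 924 CPM over 5 sums. Its values there were 2178 and 2041 CPM in the MET samples of mice 31 and 32, 642 and 1157 CPM in the cores of mice 17 and 37, and 0 in the relapse-free lung of mouse 7. The 4 sums from metastatic tissue thus lay above 600 CPM, and the sum without metastasis held no Hilpda UMI among 10630. That sum also held 1787 CPM of 5 neutrophil genes, against 16768 to 28639 CPM in the other 4, and the 2 cores held 2541 and 2957 CPM of hemoglobin and other erythrocyte genes. Hilpda was next in Mac Isg20 (514 ± 309; 95.4 to 950) and Mon Thbs1 (289 ± 260), and its mean in Mon Fn1 was 17.1 ± 47.3 CPM with a median of 0. P4ha1 (collagen prolyl hydroxylase, 239 ± 343) and Egln3 (a prolyl hydroxylase that marks HIF for degradation, 56.8 ± 77.8) also had their highest mean in PMN-MDSC. Adm, which encodes the vasodilator adrenomedullin, had 52 UMIs in all.

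Hif1a and Pdk1 had their highest mean in T cell labels. Hif1a, the subunit that oxygen controls mainly at the protein level, was highest in T Treg at 674 ± 316 CPM, ahead of Mon Thbs1 at 237 ± 157. The 7 T Treg sums of Hif1a were 516 and 791 CPM in the cores of mice 17 and 36, 592 in the margin of mouse 36, and 329, 518, 1315 and 659 in the primary tumors of mice 8, 9, 10 and 38. Hif1a was lowest in CD8 Dapl1 (13.6 ± 18.1), the naive CD8 T cells. Pdk1, a kinase that inhibits pyruvate dehydrogenase, was highest in CD4 Lef1 (114 ± 107, n = 46) and CD8 Dapl1 (114 ± 118), both naive T cell labels. It averaged 15.1 ± 25.5 in Mac Isg20. Ddit4, an inhibitor of mTORC1, was highest in T Treg (121 ± 82.2).

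A module score, the mean over members of log2(CPM + 1), was 6.21 ± 0.77 in Mac Isg20 (n = 15), 5.97 ± 1.08 in Mon Thbs1 (n = 25), 5.27 ± 0.63 in Mac Cd81 and 4.99 in both T Treg and Mac Gpnmb, and was lowest in B cells (3.05 ± 0.77, n = 30) and CD8 Dapl1 (2.99 ± 0.64). Shallow sums score low since most members are then at 0, so the score was repeated with each sum thinned to 10000 UMIs, which 471 sums reached. The order at the top held, with 5.27 ± 0.76 in Mac Isg20, 5.07 ± 1.03 in Mon Thbs1, 4.19 ± 0.81 in Mac Cd81, 4.09 ± 0.61 in T Treg and 3.91 ± 0.66 in Mac Gpnmb, and Mac Isg20 and Mon Thbs1 did not differ beyond their spread. These means pool tissues, and labels differ in the tissues that supply their sums. Thinned Mac Cd81 scored 5.24 in the core (n = 2), 4.27 in MET (n = 2) and 3.62 in primary tumors (n = 4). The members took 1.05% of UMIs in Mac Isg20, 0.91% in Mon Thbs1, 0.74% in T Treg and 0.22% in B cells.

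By tissue, the thinned score of Mon Thbs1 was 5.77 ± 0.46 in primary tumors (n = 4), 5.32 ± 0.68 in MET (n = 9) and 5.20 ± 0.77 in the core (n = 8), and it was 3.10, 3.08 and 2.80 in the only margin, distal and relapse-free sums. By the thinned score those 3 single sums fell below the lowest sum from MET, core or primary tumor (4.14). Without thinning the margin sum scored 4.70, above the lowest MET (4.23) and core (4.47) sums. The distal and relapse-free sums scored 3.97 and 3.86, below both. Mac Isg20 scored 4.97 ± 0.68 in MET (n = 8) and 5.62 ± 0.73 in the core (n = 7), with overlapping samples. The thinned score of Mon Fn1 was 3.29 ± 0.50 in MET, 3.53 ± 0.63 in the core, 3.37 ± 0.29 in the margin, 3.34 ± 0.55 in distal tissue and 3.26 ± 0.64 in primary tumors. It was 3.48 ± 0.13 in Pre-MET lungs (n = 3), 2.70 ± 0.35 in relapse-free lungs (n = 6) and 2.51 ± 0.40 in controls (n = 3). Other measures ordered the tissues differently. Without thinning, Mon Fn1 scored 4.94 ± 0.17 in primary tumors, 4.65 ± 0.74 in distal tissue and 4.12 ± 0.98 in the core, and the members took 0.531% of its UMIs in primary tumors, 0.470% in the core, 0.387% in distal tissue and 0.289% in Pre-MET lungs, so no order of tissues is read from this label.

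**Figure D2:**
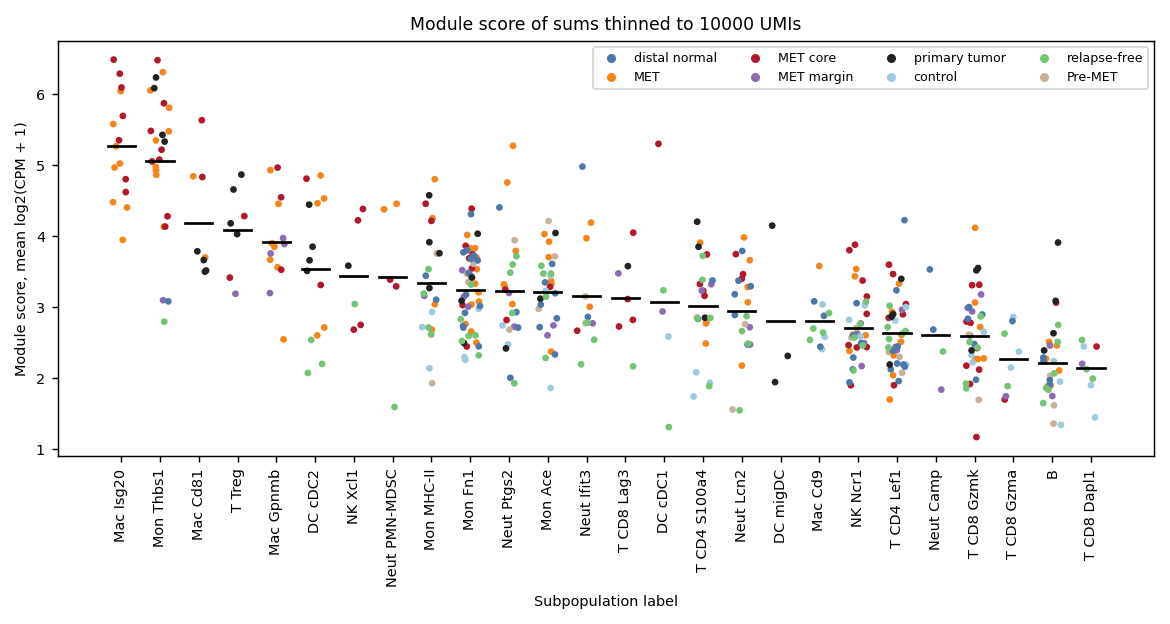
Module score, mean log2(CPM + 1) over the 32 members, of each sum thinned to 10000 UMIs, by subpopulation label. Each point is 1 mouse and tissue, colored by tissue. Mon Thbs1 sums from MET, core and primary tumor lie at 4.14 or above and its single margin, distal and relapse-free sums at 3.10 or below.

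Comparing labels inside the same sample holds the mouse and the tissue constant. In the 22 samples that held both, 31 of the 32 members had a higher average log2 level in Mon Thbs1 than in Mon Fn1, with Bnip3l as the exception. Of the members, 9 were higher in at least 80% of the samples. The same counts over all genes were not computed, so they are not read as particular to these genes. Ldha was 1435 ± 628 CPM in Mon Thbs1 and 617 ± 179 in Mon Fn1 (higher in 20 of 22 samples), Tpi1 was 660 ± 337 and 184 ± 109 (20 of 22), Bnip3 was 340 ± 233 and 65.1 ± 76.2 (20 of 22), Mif was 350 ± 222 and 121 ± 96.9 (18 of 22) and Hilpda was 291 ± 259 and 29.7 ± 71.5 (18 of 22). The score was higher by 1.30 ± 1.21 (18 of 22), and by 1.72 ± 1.05 after thinning (20 of 20). The samples in which Ldha was lower in Mon Thbs1 were the distal and the relapse-free one. Bnip3l stood at 82.2 ± 59.6 and 94.1 ± 53.1 CPM.

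**Figure D3:**
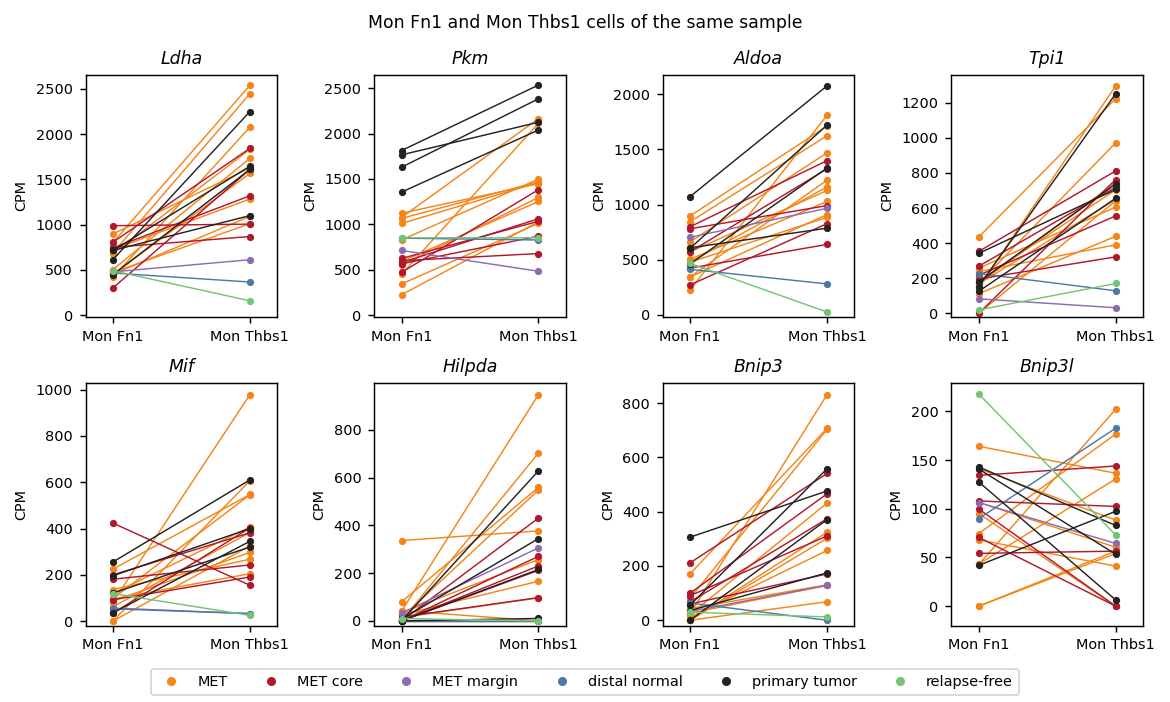
Levels in CPM of 8 members in Mon Fn1 and Mon Thbs1 cells of the same sample; each line is 1 of 22 samples, colored by tissue. Lines rise for Ldha, Tpi1 and Bnip3 in 20 of the 22 samples, and for Bnip3l in 9.

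Among macrophages, Mac Isg20 exceeded Mac Gpnmb, the label of the regulatory macrophages (Mreg), in the average log2 level of 29 members over 9 shared samples. Aldoa was 2003 ± 473 against 1383 ± 353 CPM and Pgk1 282 ± 80.4 against 120 ± 90.6, each higher in 9 of 9 samples, and Ldha was 1587 ± 462 against 921 ± 271 (8 of 9). Bnip3l (43.8 ± 23.8 against 117 ± 106) was higher in Mac Isg20 in 2 of 9 samples, Bhlhe40 had the lower log2 average and Adm was at 0 in both. The 2 NK labels differed by gene, since in 5 shared samples NK Xcl1 exceeded NK Ncr1 for Mif (445 ± 200 against 135 ± 40.0 CPM) and Aldoa (632 ± 401 against 284 ± 135) in 5 of 5, but for Vegfa (5.38 ± 12.03 against 32.4 ± 37.8) in 0 of 5. In CD8 T cells, the dysfunctional label CD8 Lag3 had more Aldoa than CD8 Gzmk (931 ± 331 against 488 ± 149 CPM) in 7 of 7 samples, while 14 of the 32 members had the higher log2 average there. None of these differences was tested, and the counts of members have no count over all genes beside them.

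Whether a given subpopulation changes these genes with its place was tested by edgeR's quasi-likelihood test on the sums, label by label where both groups had at least 3 sums. Between metastatic and distal lung no member passed an adjusted p of 0.05 within any label in the fits with at least 10 cells a sum, the filter on low counts and no block. For MET against distal normal (10 labels) 0 of 33 member tests were called, over 9 members that passed the filter on low counts, with 23 estimates above 0 and 0 with an unadjusted p under 0.05. The background was 0.0208% of 4811 gene tests called, 130 of them having an unadjusted p under 0.05. For the core against distal normal (7 labels) 0 of 23 member tests were called (17 above 0, 2 with an unadjusted p under 0.05), beside 0.749% of 3874 gene tests. For the margin against distal normal (4 labels) 0 of 9 were called (8 above 0, 0 with an unadjusted p under 0.05), beside 0% of 2409. DESeq2 also called 0 members in each. With the mouse as a block (3 mice), Hilpda in Neut Ptgs2 was called higher in the core than in distal lung (log2 change 3.78, adjusted p = 0.00833), beside 1.89% of 952 genes called higher. Its values were 154, 2064 and 165 CPM in the cores of mice 17, 28 and 37 and 20.5, 114 and 0 CPM in their distal lungs, so the core was higher in each mouse. Hilpda passed the filter of that fit only through the core, with 5 UMIs in the 3 distal sums. The median log2 change of the members tested was 0.18, 0.14 and 0.22 in these comparisons, which share the distal samples.

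Ldha in Mon Fn1 came closest among the members tested there. It ran from 195 over a median of 444 to 725 CPM in distal lung (n = 13), from 342 over 471 to 896 in MET (n = 13) and from 300 over 748 to 1055 in the core (n = 7). The groups overlap, with the core the highest by median. The core exceeded distal tissue by a log2 change of 0.72 (SE 0.24, adjusted p = 0.19), in 6 of 7 mice, and MET did so by 0.30 (SE 0.18, adjusted p = 1.00), in 11 of 12 mice. Aldoa in Mon Fn1 differed from distal tissue by log2 -0.05 in MET and 0.03 in the core. Of the 32 members, 24 passed the filter in at least 1 main label fit. Gapdh, Hk1, Vegfa, Adm, Egln3, Pdk1 and Ddit4 passed it in no main fit by label or lineage. Main fits had at least 10 cells a sum, all labelled cells and samples, and no block. Of 45 other genes of the pathway, chosen as a list (further glucose transporters, isoenzymes, HIF regulators and targets), 33 tests over all comparisons gave 0 calls.

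At the level of whole lineages the picture differed. When all labels of a lineage were summed, macrophages of MET had 8 of the 10 members tested called, all higher than in distal normal lung, beside 6.9% of 1289 genes called higher. The 8 were Aldoa, Pkm, Ldha, Eno1, Tpi1, Mif, Hilpda and Bnip3. Of these, Aldoa, Pkm and Ldha would also have passed the filter on the distal sums alone. The other 5 passed it only through MET, so the count of 8 is a description. Hilpda and Bnip3 rest on 4 UMIs each over the 6 distal sums, against 364 and 239 UMIs in MET. Hilpda ran from 162 over a median of 260 to 663 CPM in MET (n = 9) and from 0 over 14.2 to 78.4 in distal lung (n = 6), a log2 change of 3.46 (SE 0.65, adjusted p = 0.00153). Bnip3 ran from 90.02 over 204 to 309 in MET and from 0 over 28.3 to 74.7 in distal lung (log2 change 2.90, SE 0.66, adjusted p = 0.00612). Pkm ran from 486 over 1215 to 1733 in MET and from 235 over 343 to 453 in distal lung (1.95, SE 0.38, adjusted p = 0.00204). The groups did not overlap for Hilpda, Bnip3 or Pkm, and the share of all genes without overlap was not computed.

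The other 5 called members overlapped between the groups in at least 1 sample. Macrophage Eno1 averaged 922 ± 521 against 193 ± 173 CPM (log2 change 2.45, adjusted p = 0.00263), Tpi1 421 ± 155 against 81.7 ± 81.8 (2.27), Ldha 1268 ± 322 against 490 ± 191 (1.51), Mif 423 ± 131 against 142 ± 105 (1.57) and Aldoa 1569 ± 416 against 773 ± 380 (1.28), and each of these was higher in MET in at least 4 of the 5 mice with both tissues. All 8 were higher in MET within each of the 2 batches that held both groups. These batches were small, with 3 MET and 4 distal sums in 1 and 1 sum of each in the other. With the mouse as a block (5 mice) 5 members passed the filter, and Pkm, Ldha, Eno1 and Mif were called, beside 11.3% of 762 genes called higher. Eno1 and Mif passed the filter of that fit only through MET, with 1 and 0 of the 5 distal sums at its level. Aldoa missed the threshold there (log2 change 0.88, adjusted p = 0.0593), and Tpi1, Hilpda and Bnip3 did not pass the filter and were not tested.

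Beside these differences the makeup of the lineage moved. Mac Cd9, the alveolar label, made up 63.6% of distal macrophages on average and 7.6% in MET, and Mac Isg20 made up 7.2% and 39.2%. The sums also differed otherwise: distal macrophages held 9 epithelial genes at a median of 327 CPM (0 to 1120) against 25.0 CPM (0 to 127) in MET, with 3 and 4 of the 9 genes detected. The mitochondrial share of UMIs was 2.72 ± 0.53% in distal macrophages and 1.60 ± 0.47% in MET, and the median UMIs per cell averaged 1281 ± 464 and 2146 ± 1321. The part of these values and of label makeup in the lineage differences was not tested. No macrophage label had 3 sums in distal lung and 3 in MET or the core, so no fit within a macrophage label could be had for these tissues.

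In monocytes, MET had 3 of 14 tested members called, all higher, beside 1.48% of 2098 genes called higher. Mif ran from 77.3 over a median of 209 to 563 CPM in MET (n = 13) and from 0 over 66.6 to 111 in distal lung (n = 14), with a log2 change of 1.71 (SE 0.30, adjusted p = 0.000659), and was higher in 12 of 13 mice. Only 3 of the 14 distal sums reached the filter's level for Mif, which would not have passed on distal sums alone. Ldha ran from 401 over 898 to 1398 CPM against 305 over 487 to 787 (0.93, SE 0.19, adjusted p = 0.00460, 11 of 13 mice). Tpi1 averaged 323 ± 180 against 155 ± 58.5 (1.16, SE 0.28, adjusted p = 0.0213, 11 of 13 mice), with a MET sample at 0 CPM at the low end. With the mouse as a block Aldoa was called as well (0.57, adjusted p = 0.0299, 10 of 13 mice), beside 3.54% of 1979 genes called higher. Mif and Tpi1 would not have passed the filter of that fit on distal sums alone. The share of Mon Thbs1 among monocytes was 25.5% in MET and 5.3% in distal lung, and that of Mon Fn1 51.4% and 68.8%.

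The core gave a similar list against the same distal samples. In macrophages 6 of 8 tested members were called, all higher, beside 9.64% of genes, and these 6 passed the filter only through the core: Bnip3 (425 ± 480 CPM, n = 10, against 33.8 ± 37.6, log2 change 3.61, adjusted p = 0.0319), Tpi1 (639 ± 362 against 81.7 ± 81.8, 2.69, adjusted p = 0.00205), Eno1 (768 ± 196, 1.98), Pkm (1120 ± 289, 1.73), Mif (478 ± 225, 1.56) and Ldha (1335 ± 686, 1.39). Mac Cd9 made up 0.48% of core macrophages and Mac Isg20 56.4%, and their mitochondrial share of UMIs was 1.49 ± 0.25%. In the 3 batches with both groups Pkm, Ldha, Eno1 and Tpi1 were higher in the core in 3 of 3, and Mif and Bnip3 in 2 of 3. Of these batches 1 held 5 core and 4 distal sums, and the others 1 sum of each. Bnip3 in the core ran from 0 over a median of 276 to 1494 CPM, so the core reached down to the level of distal lung. In monocytes Ldha (1114 ± 467 CPM, n = 13, against 503 ± 144; log2 change 1.20, adjusted p = 0.000163, 11 of 13 mice), Tpi1 (479 ± 384.1 against 155 ± 58.5; 1.68, 9 of 13 mice) and Aldoa (878 ± 346 against 519 ± 171; 0.83, 10 of 13 mice) were called, 3 of 6 tested, beside 6.73% of genes. Mon Thbs1 made up 43.7% of core monocytes. Over 4 batches Ldha and Aldoa were higher in the core in 4, and Tpi1 in 3, with 86.5 against 169 CPM in the other. Tpi1 would not have passed the filter on distal sums alone (4 of 14 at its level). In T cells Aldoa alone was called of 5 members tested, at 643 ± 355 against 309 ± 106 CPM (log2 change 1.08, adjusted p = 0.0239, 9 of 12 mice), beside 1.12% of genes. On distal T cell sums alone Aldoa would not have passed the filter (10 of 13 at its level). The makeup of T cells moved as well, with CD8 Lag3 at 16.2% in the core and 2.6% in distal lung, Treg at 6.3% and 0.13%, and CD4 Lef1 at 22.2% and 49.0%. The mitochondrial share of T cell UMIs was 2.66 ± 0.45% in the core and 3.50 ± 0.55% in distal lung. Core cells were sorted by activated GFP and distal cells by CD45. The part of sort gate, makeup and mitochondrial share in these differences between core and distal lung was not tested. With the mouse as a block, the macrophage calls (5 mice) were Aldoa, Pkm, Ldha, Eno1 and Tpi1, each higher in 5 of 5 mice, beside 10.7% of the genes tested called higher, and none of these 5 would have passed the filter on distal sums alone. Mif missed the threshold in that fit (1.64, adjusted p = 0.0887), and Bnip3 did not pass its filter. Monocyte Pkm (0.69, adjusted p = 0.00580, higher in 4 of 4 batches) and Eno1 (0.55, adjusted p = 0.0417, 3 of 4) were also called with the block, beside 10.5% of 991 genes, and T cell Aldoa was called again (0.80, adjusted p = 0.0486), beside 3.23% of 713. On distal sums alone neither monocyte Eno1 (12 of 13 at the level) nor T cell Aldoa (11 of 12) would have passed the filter of the block fit. Neutrophil Hilpda was called in that fit too, at 572 ± 650 against 42.1 ± 18.2 CPM in 6 of 6 mice (3.06, adjusted p = 0.00468), beside 1.37% of 1024 genes. Hilpda passed that filter only through the core. Without the block Hilpda did not pass the neutrophil filter and 0 of 6 members tested were called. PMN-MDSC, the label with the most Hilpda, made up 19.99% of core and 0.11% of distal neutrophils, and the part of this shift was not tested.

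The margin differed from distal lung in 2 of 4 macrophage members tested, Eno1 (935 ± 348 CPM, n = 4; log2 change 2.44, adjusted p = 0.0121) and Pkm (1084 ± 528; 1.89, adjusted p = 0.0222), beside 3.27% of genes. Both passed the filter only through the margin. Eno1 and Pkm did not overlap between the groups, again without a share over all genes beside it. Without the margin of mouse 33 or that of mouse 36 only Eno1 was called, 1 member. Only 2 mice had macrophage sums of both tissues, so no fit with the mouse as a block was run for them. Mac Gpnmb made up 79.4% of margin macrophages and 16.9% of distal ones. The mitochondrial share of UMIs was 1.54 ± 0.13% in margin and 2.72 ± 0.53% in distal macrophages. In the 2 batches with both groups Eno1 was higher in the margin, at 585 against 340 CPM (1 sum each) and 1234 against 470 (2 margin sums, 1 distal). Pkm was 472 against 425 and 1100 against 235 CPM there. Another batch held 4 distal sums, with Eno1 at 87.1 CPM on average, and no margin sum of macrophages. Margin cells were sorted by activated GFP and distal cells by CD45. The part of batch, sort gate, makeup and mitochondrial share in the margin differences was not tested.

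**Figure D4:**
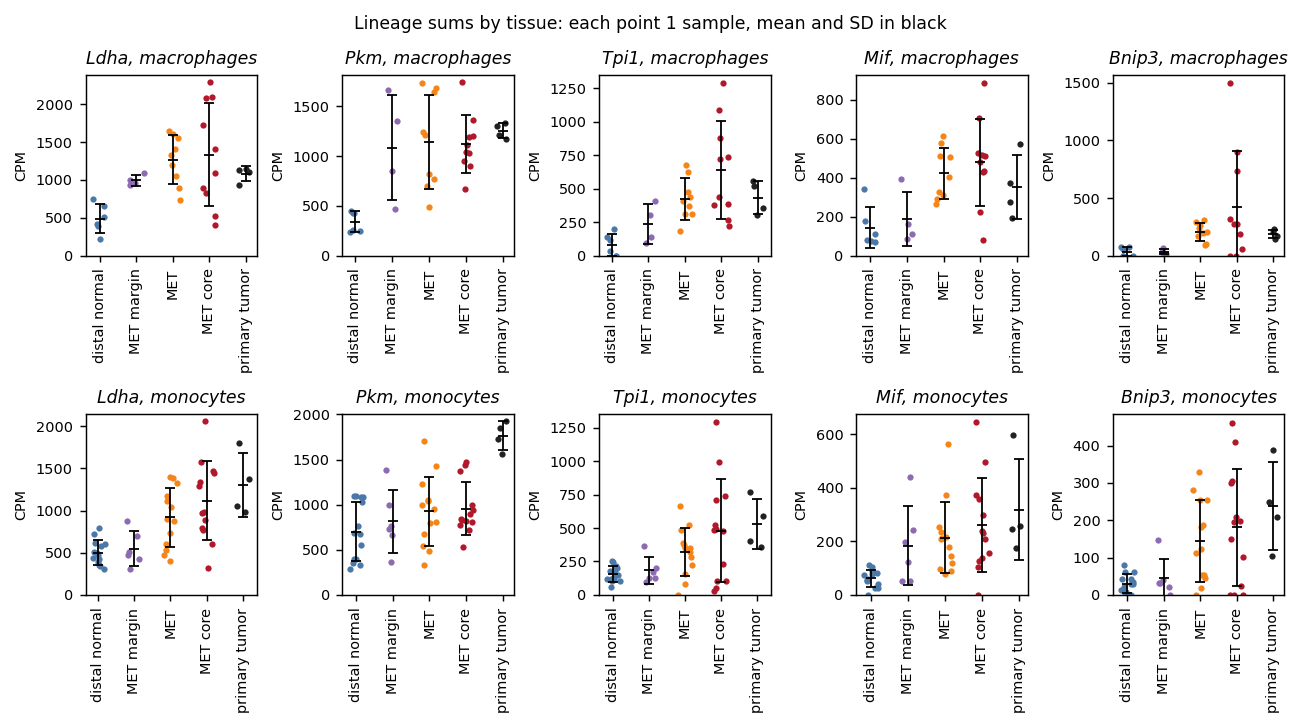
Levels in CPM of 5 members in all macrophages (top row) and all monocytes (bottom row) of a sample, by tissue. Points are samples, black marks the mean and SD. Macrophage Pkm in MET, core and margin samples (472 or more) lies above the 6 distal samples (453 or less), and monocyte Ldha is highest in core and primary tumor samples.

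Core and margin were compared to ask whether the inside of a metastasis differs from its edge. Within labels 0 of 15 member tests were called (5 labels; 11 estimates above 0, 1 with an unadjusted p under 0.05), beside 0% of 2542 gene tests with 53 at an unadjusted p under 0.05, and DESeq2 called 0. In lineage sums 0 of 32 were called, with 8 at an unadjusted p under 0.05, beside 0.0217% of 4604 gene tests called and 314 at an unadjusted p under 0.05. With the mouse as a block in the 5 mice with both, 4 monocyte members were called, all higher in the core, beside 3.32% of 1354 genes, and of these Mif and Tpi1 would not have passed the filter on margin sums alone. Ldha ran from 771 over a median of 1288 to 2058 CPM in the core and from 310 over 475.5 to 872 in the margin (log2 change 1.16, SE 0.24, adjusted p = 0.0122, 5 of 5 mice). Mif averaged 319 ± 141 against 133 ± 85.9 (1.31, adjusted p = 0.0379, 5 of 5), Tpi1 507 ± 379 against 146 ± 42.9 (1.60, adjusted p = 0.0439, 4 of 5) and Aldoa 1102 ± 327 against 557 ± 256 (1.05, adjusted p = 0.0472, 5 of 5). Over the batches that held both regions, with all sums and not only those of the 5 mice, Ldha was higher in the core in 4 of 4. Aldoa and Tpi1 were higher there in 3 of 4 and Mif in 2 of 4. In the batch that went the other way for both, Aldoa averaged 734 CPM in the core and 1046 in the margin, and Tpi1 86.5 and 285. Mon Thbs1 made up 43.7% of core (n = 13) and 11.7% of margin (n = 6) monocytes, and within Mon Fn1 Ldha differed between core and margin by log2 0.50 (SE 0.37, adjusted p = 0.97).

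Macrophage Bnip3 had the widest gap between core and margin among members, without a call. It averaged 425 ± 480 CPM in 10 cores and 33.3 ± 22.6 in 4 margins, a log2 change of 3.30 with a SE of 1.03 (adjusted p = 0.19). Slc2a1 averaged 168 ± 124 against 34.4 ± 38.3 (1.99, SE 0.71, adjusted p = 0.27) and Higd1a 237 ± 213 against 37.3 ± 23.1 (2.29, SE 0.86, adjusted p = 0.31). Of the 16 macrophage members tested, 6 had an unadjusted p under 0.05, as had 178 of 1743 genes, and 0 passed the adjusted threshold.

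Between primary tumors and the metastasis core 1 of 67 member tests in 7 labels was called and 13 had an unadjusted p under 0.05, beside 2.18% of 9431 gene tests called and 1383 at an unadjusted p under 0.05, so the members' share called is near the background. The call was Pkm in CD4 S100a4, the activated CD4 T cells, with 2113, 954 and 752 CPM in the primary tumors of mice 9, 10 and 38 and 135, 375, 0, 259 and 444 CPM in the cores of mice 17, 25, 27, 28 and 36. The groups do not overlap, and the log2 change was 2.60 (SE 0.60, adjusted p = 0.0242). The call was lost without the core of mouse 17 or 27 or the primary tumor of mouse 9 or 10. Summed T cells gave the same direction for Pkm, 749 over a median of 1069 to 1132 CPM in 4 primary tumors and 27.2 over 357 to 842 in 13 cores (1.60, SE 0.34, adjusted p = 0.0179), beside 0.364% of genes called higher, and this call was lost without the primary tumor of mouse 8, 9 or 10. In the 1 batch that held both, T cell Pkm was 1132 CPM in the primary tumor and 418 CPM on average in 2 cores. Treg cells made up 21.5% of T cells in primary tumors and 6.3% in cores. Primary tumor cells were sorted by CD45 and core cells by activated GFP, and the part of the sort gate was not tested. Cells of primary tumors were also deeper, with median UMIs per cell of 1944 ± 496 against 866 ± 342 in T cells and 5764 ± 2165 against 1491 ± 1025 in monocytes, and the part of this depth was not tested.

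Pkm in Mon Thbs1 did not overlap between the groups either (2039 to 2535 CPM in 4 tumors against 664 to 1779 in 8 cores; log2 change 1.15, SE 0.32, adjusted p = 0.0620), but this missed the threshold in that fit and passed it with DESeq2 (adjusted p = 0.00638) and in edgeR with at least 20 cells a sum (1.21, adjusted p = 0.0162). In Mac Cd81, Tpi1 ran from 267 to 503 CPM in 4 tumors and from 792 to 1527 in 3 cores (-1.28, SE 0.40, adjusted p = 0.0533), and Hk2 from 24.6 to 40.9 and from 145 to 227 (-1.998, SE 0.65, adjusted p = 0.0662), both called by DESeq2. No mouse had both tissues, and 3 of the 4 primary tumors were sequenced in a batch without cores, so that batch and tissue cannot be told apart there. Ldha in Mon Thbs1 was 1651 ± 470 CPM in tumors and 1627 ± 577 in cores.

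Mon Thbs1 cells were rare in distal lung, and with a minimum of 5 cells a sum 5 distal samples (5 to 12 cells each) could be set against 10 MET samples. Then 7 of 9 members tested were called higher in MET, beside 7.47% of 696 genes called higher. Of the 7, only Pkm would have passed the filter on the distal sums alone, and the others passed it through MET, so the count is a description. Pkm ran from 1011 over a median of 1454 to 2165 CPM in MET and from 350 over 540 to 827 in distal lung (log2 change 1.32, adjusted p = 0.0225), without overlap. Mif ran from 205 over 394 to 979 against 0 over 0 to 117 (4.03, adjusted p = 0.00165), also without overlap, but on 4 UMIs in distal lung. Ldha (1.38), Aldoa (1.74), Tpi1 (1.61) and Hilpda (3.49, on 4 distal UMIs) were called too, and Bnip3 had 318 UMIs of 802002 in MET and 0 of 153151 in distal lung. In the core against distal lung, Mif alone was called (3.70, adjusted p = 0.00529, on the same 4 distal UMIs), beside 5.01% of 599 genes. Mif passed the filter of that fit only through the core, with 0 of the 5 distal sums at its level.

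The change between MET and distal lung was not shown to differ between monocytes and T cells. In a fit of the lineage by tissue term over 13 MET and 13 distal samples 0 of 7 members tested were called with edgeR (2 at an unadjusted p under 0.05), beside 0% of 1472 genes with 81 at an unadjusted p under 0.05. Mif came closest, with a monocyte change larger than that of T cells by log2 1.44 (SE 0.35, adjusted p = 0.0870), and DESeq2 called it (adjusted p = 0.0181).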

How the data were processed

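Deposited values were raw UMI counts per gene and well of 148 plates. Per the study's methods, the authors mapped reads to mm10 with HISAT, excluded reads with several positions, assigned the rest to exons, dropped cells under 500 UMIs and labelled cells by metacell clustering; per the labels, bcl2fastq 2.15.0.4 was used. Labels were used as deposited for 24020 cells; doublets were treated only by the authors' sorting gate, with no caller applied. Counts were summed per mouse, tissue and label (at least 10 cells), scaled to CPM, and tested with edgeR 4.0.16 (R 4.3.3, limma 3.58.1; TMM, filterByExpr, quasi-likelihood, Benjamini-Hochberg over all genes, call at adjusted p below 0.05). Every test on sums treats mice as replicates. DESeq2 1.42.0 and the settings in the closing section were alternatives. Sums over a whole lineage were an alternative to label sums; their DESeq2, block and leave-out fits were chosen after seeing the data. The edgeR fit was tested on simulated data. Tables used Python 3.11.15 and pandas 2.3.3. Members and lists were chosen with earlier results of these data known. Members called in any label are named, each member is given by its highest label (of those with at least 3 sums), and the 8 most abundant members by sample. Mice of 1 number are the same animal, from which the pairing comes. Thinning used 10000 UMIs and a fixed seed, and log levels a pseudocount of 1 CPM. Intervals of shares and counts were not computed, and UMI sums carry counting error besides the spread between mice. Overlap between groups was examined for members and the listed pathway genes only, so it has no background share in any comparison.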

Additional observations from a re-analysis of the deposited data

Results flagged for a closer look

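Of 53 groups of sums of 1 label and tissue with 4 to 10 samples, 3 held a module score far below the rest, and chance alone sets about 1 in 20 groups apart in this way. B cells of the relapse-free mouse 29 scored 1.81, against 3.07 for the next of 6 sums, from 16 cells with 12441 UMIs. CD4 Lef1 cells of the same mouse scored 2.75, against 4.13 for the next of 6, from 27 cells with 17458 UMIs. Mac Isg20 cells of the MET of mouse 30 scored 4.03, against 5.56 for the next of 8, from 12 cells with 17248 UMIs. The part of the low UMI numbers in these scores was not tested.

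Wells outside the immune annotation also held member UMIs. The members took 0.353% of UMIs in 592 wells without a cell (30 of 8490), 0.926% in 128 wells of at least 500 UMIs that carried no label (15696 of 1694620) and 1.18% in 94 wells of the label Tumor (6127 of 518222), against 0.452% in the annotated wells.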

How the results depend on the processing

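No called change of a member and no difference between labels listed here turned its sign in the alternatives that gave it a value. Changes that were not called did turn in places, such as the 1 NK member tested in margin against distal normal (log2 0.04, and -0.09 without margin 31). The order of tissues by module score turned with thinning in Mon Fn1 (core 4.12 and distal 4.65 before, 3.53 and 3.34 after) and Mac Cd81 (core 5.10 and primary 5.46 before, 5.24 and 3.62 after). Of the repeated results, 129 were counted as the same. This means a number of calls equal or close to the main one, or a score difference between labels that moved by less than its SD. Another 16 gained calls, 11 lost calls and 1 score difference moved further. For MET against distal normal the 0 calls became 7 with at least 5 cells in a sum and 11 with lineage sums. For the core against distal normal they became 1 with at least 5 cells, 2 without a filter on low counts (Ndrg1 in Mon Fn1, log2 -4.44, adjusted p = 0.000404, and Hilpda in Neut Ptgs2, 4.39, adjusted p = 0.0391), 1 with the replicate block (mouse; Hilpda in Neut Ptgs2) and 10 with lineage sums. For the margin against distal normal they became 2 with lineage sums, and these 2 became 1 to 2 with 1 sample left out. The replicate block gave 0 there, but no block fit was run for macrophages (2 mice), so the 2 macrophage calls were not tested under it. Core against margin in lineage sums gave 4 calls with the replicate block in place of 0. The 1 call of primary tumor against core became 4 with DESeq2, 2 with DESeq2 size factors, 2 with at least 20 cells (Pkm and Slc16a3 in Mon Thbs1), 0 with cells of at least 1000 UMIs, 0 with batch as a covariate (CD4 S100a4, the label of the call, could be fitted in none of these 3) and 0 to 3 with 1 sample left out (0 without core 17, core 27 or primary 9, 2 without core 26, 3 without primary 8, and without primary 10 a different 1, Tpi1 in Mac Cd81). Without primary 8, edgeR called Higd1a (log2 -2.66, adjusted p = 0.0140) and Vegfa (-3.28, adjusted p = 0.00173) lower in primary tumors in Mac Cd81. Without core 26 it called Pkm higher there (2.48, adjusted p = 0.0167). In lineage sums the 1 call of primary tumor against core became 6 with DESeq2 and 0 to 1 with 1 sample left out. The lineage difference gained 1 call with DESeq2 and 1 without the filter, which was Hilpda (log2 3.43, adjusted p = 0.0327). The module score of Mac Isg20 minus Mac Cd81 in the same sample was 0.305 with a pseudocount of 100 CPM and 1.25 with 1. A larger pseudocount makes each log2 difference smaller by its arithmetic, most so for members at low CPM. Any further part was not tested. Cells of at least 1000 UMIs gave no fit for core against margin, and the batch covariate could be fitted in Mon Thbs1 and CD4 Lef1 only. Sums are shallow, so a member at 0 in a label was not detectable at that depth.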

Other observations

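Outside the comparisons, the 2 sums of the label Tumor had module scores of 6.60 and 7.39 (primary tumors of mice 10 and 38), against a mean of 6.21 in Mac Isg20, the highest immune label. Ldha stood at 2119 and 2120 CPM there. In lungs without metastases, monocyte Pkm was 258 ± 37.9 CPM in controls (n = 3), 364 ± 34.4 in Pre-MET lungs (n = 3) and 349 ± 197 in relapse-free lungs (n = 6), but controls were sequenced alone in 1 batch, so batch and group cannot be told apart.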
